A study of Mus musculus with 14 samples.

Results

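The 6 genes described here encode the receptors and helpers by which cells hand damaged or surplus mitochondria to autophagy: Bnip3, Bnip3l, Fundc1, Fkbp8, Pink1 and Sqstm1. They were chosen by symbol and matched to their Ensembl identifiers, and all 6 were found among the 52636 genes of the deposited table. RNA was sequenced in bulk from transformed mouse embryonic fibroblasts (tMEF), embryonic connective tissue cells that keep dividing in culture. The labels state that the telomere-binding protein TRF1 of the mouse had been replaced in all of them by TRF1 of the naked mole rat, a rodent that lives in poorly aired burrows, and the study asked how its variants fare in low oxygen. A GLAD/TIN double mutant carried Glu69Lys, Val70Ala, Ala75Thr and Ala105Thr, a TIN mutant carried Ala105Thr alone, and a GLAD mutant carried Glu69Lys, Val70Ala and Ala75Thr. Each mutant was kept in hypoxia (1% O2) or in normoxia (atmospheric oxygen), and cells with the unmutated naked mole rat TRF1, called wild type below, were measured in normoxia. Wild-type cells in hypoxia were not analysed here. Each of the 7 groups had 2 libraries, A and B, which gives 14 in all. Nothing in the labels says that the 2 came from separate cultures, so p-values measure the spread between libraries, which may be technical. Both wild-type samples are named differently from the mutants, with Mouse in the name, and which TRF1 those cells carried was not checked.

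Mitophagy is the removal of mitochondria by autophagy, in which a membrane studded with proteins of the ATG8 family (LC3 and GABARAP) closes around the organelle and carries it to the lysosome. BNIP3 and its close relative NIX, the product of Bnip3l, sit in the outer mitochondrial membrane, bind ATG8 proteins directly, and are known as transcriptional targets of the hypoxia-inducible factors (HIF). FUNDC1 and FKBP8 are further outer-membrane receptors; FUNDC1 is switched on in low oxygen through loss of phosphate groups, and FKBP8 also holds back cell death. In the other route the kinase PINK1 gathers on depolarised mitochondria and sets off their tagging with ubiquitin, after which adaptors such as p62, the product of Sqstm1, link ubiquitin to LC3.

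The deposited values are CPM, the count of a gene scaled to a fixed library total, which were rescaled between libraries by the trimmed mean of M-values (TMM); levels below are TMM-scaled CPM. The values moved in steps of 0.04997 to 0.04998 CPM. Read numbers were estimated by assuming that reads had been multiplied by a factor per library and rounded up to whole steps. The fitted factors, 1.3312 to 1.6783, gave 11916993 to 15023543 reads per library. On that assumption 1 read was worth 0.06653 to 0.08387 CPM. All 6 genes stood far above this, from 17.6 CPM upwards in every library, and all 6 passed the filter of 1 CPM in 2 libraries that left 16157 genes to test. Terf1, the replaced gene, stood at 87.0 to 114.4 in the 6 hypoxia libraries, at 127.7 to 186.1 in the 6 mutant libraries in normoxia, and at 87.4 to 104.5 in wild type, and a count per gene cannot tell the mouse and naked mole rat sequences apart. The 8 fibroblast markers moved with genotype and singly with oxygen, while their sum changed little with oxygen in the double mutant and TIN. Their sum was 8471.4 and 8256.3 in the double mutant in hypoxia, against 8021.2 and 9126.2 in normoxia, 6962.1 and 7075.7 in TIN in hypoxia, against 6951.4 and 6749.7 in normoxia, and 10040.2 and 11582.7 in GLAD in hypoxia, against 8722.2 and 9193.3 in normoxia. In wild type it was 14780.6 and 15483.0, above every mutant library. Of the 7 tested, 4 fell and 1 rose in hypoxia on average (median −0.43, and −0.82 in the double mutant), against 37.0% and 30.6% of all genes. In normoxia 6 were lower in TIN than in wild type (median −1.05), a comparison that called 60.2% of all genes in either direction. Thy1, the untested one, was at most 0.202 and listed at 0 in both wild-type libraries. The part of these shifts in the results was not tested. The 5 erythroid marker genes, whose cells use NIX most, summed to at most 1.26. Of the 5 myeloid markers Ptprc, Adgre1 and Itgam did not exceed 0.207, while Cd68 was higher in hypoxia by 1.89. All differences between groups are on the scale of log2(TMM-scaled CPM + 0.5), given ± SE, with Benjamini-Hochberg adjusted p from limma over the 16157 genes, and are called at 0.05.

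Across the 3 mutants hypoxia separated the 6 genes into 2 that rose strongly and 4 that moved little. In bulk RNA, fewer cells of a kind and less RNA per cell cannot be told apart. Bnip3 and Bnip3l were the only ones of the 6 whose hypoxia libraries all lay above the normoxia libraries of the mutants, as did 7.58% of all genes tested. Averaged over the mutants, Bnip3 rose by 2.95 ± 0.04, Bnip3l by 1.72 ± 0.05 and Pink1 by 0.14 ± 0.05, while Fkbp8, Sqstm1 and Fundc1 fell by 0.19 ± 0.05, 0.17 ± 0.04 and 0.16 ± 0.06. All 6 were thus called, in a comparison that called 67.5% of genes, 30.6% up and 37.0% down, with a median of −0.04. The calls of Pink1 and Fundc1 were lost in 5 and 4 of the 14 fits without 1 library, and also after length and GC adjustment (0.03, 0.54, and −0.10, 0.11), in which the dependence of log2 levels on transcript length and GC content was taken out of each library. That adjustment moved Fkbp8 to −0.29. Of the 6, 2 rose at least 2-fold, against 5.16% of all genes. By mutant, 5 of the 6 were called in the double mutant, 3 in TIN and 4 in GLAD, where 56.1%, 53.9% and 48.1% of genes were called.

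**Figure D1:**
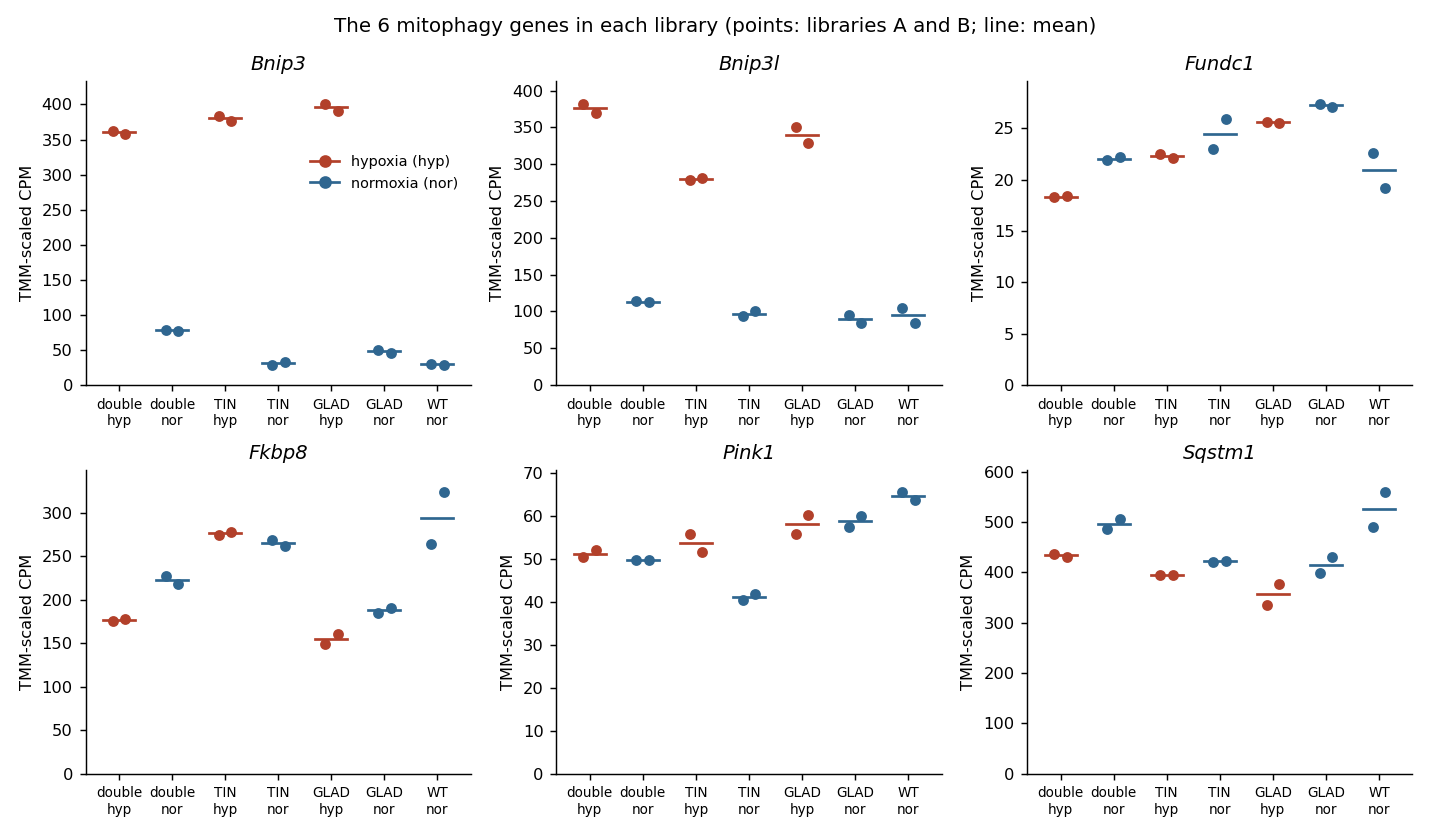
Level of each of the 6 genes in every library (vertical axes, TMM-scaled CPM from 0; points, libraries A and B; lines, group means), with hypoxia in red and normoxia in blue for the double mutant, TIN, GLAD and wild type. Bnip3 and Bnip3l stand at 278.4 or more in every hypoxia library and at 114.0 or less in every normoxia library, whereas the ranges of the red and blue points overlap for the other 4 genes.

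Bnip3 (ENSMUSG00000078566, GRCm38 chr7:138890836-138909519, minus strand, protein coding) was the most strongly raised of the 6. In the double mutant it stood at 362.1 and 358.4 in hypoxia, against 78.8 and 76.9 in normoxia. In TIN it stood at 383.9 and 376.9 in hypoxia, against 28.9 and 33.0 in normoxia. In GLAD the values were 401.3 and 390.8 in hypoxia, against 49.8 and 46.2 in normoxia. The hypoxia libraries of the 3 mutants lay within 358.4 to 401.3, and the mutants did not overlap at either oxygen level. The wild-type libraries, at 30.5 and 28.8 in normoxia, overlapped those of TIN and no other group.

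The rise amounted to 4.63-fold in the double mutant (2.20 ± 0.08, adjusted p = 1.2e-13), 12.3-fold in TIN (3.60 ± 0.08, 8.9e-17) and 8.25-fold in GLAD (3.03 ± 0.08, 1.4e-15). The rise itself differed between mutants: it was smaller in the double mutant than in TIN by 1.40 ± 0.11 (−1.40, adjusted p = 2.7e-08) and than in GLAD by 0.83 ± 0.11 (−0.83, 5.2e-05), and larger in TIN than in GLAD by 0.57 ± 0.11 (6.9e-04). In normoxia Bnip3 was higher in the double mutant than in TIN by 1.32 ± 0.08 (adjusted p = 6.6e-11), than in GLAD by 0.69 ± 0.08 (1.2e-06) and than in wild type by 1.38 ± 0.08 (4.0e-11). GLAD was above wild type by 0.69 ± 0.08 (7.1e-07) and TIN below GLAD by 0.63 ± 0.08 (−0.63, 1.7e-06). TIN against wild type differed by 0.06 (95% interval −0.10 to 0.22, adjusted p = 0.53). In hypoxia none of the 3 pairs of mutants was called for Bnip3: the double mutant against TIN gave −0.08 (−0.24 to 0.08), against GLAD −0.14 (−0.30 to 0.02), and TIN against GLAD −0.06 (−0.22 to 0.10). In normoxia the level of the double mutant exceeded the sum of the separate GLAD and TIN effects by 0.63 ± 0.11 (adjusted p = 9.2e-05). Every Bnip3 call named here held in each of the 14 fits that left out 1 library.

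The 8 HIF marker genes, which report the oxygen response, all rose in hypoxia in each mutant, against 25.8% of all genes in the double mutant, 25.6% in TIN and 22.1% in GLAD, with a median of 2.52 in the double mutant, 3.16 in TIN and 3.21 in GLAD. In normoxia 7 of the 8 were higher and 1 was lower in the double mutant than in wild type (28.2% and 28.6% of all genes), with a median of 0.93. Against TIN all 8 were higher in the double mutant in normoxia (median 1.42; 22.9% of all genes), and against GLAD 7 were higher (median 1.07; 18.5% of all genes). Against wild type in normoxia, 1 was higher and 2 were lower in GLAD (median 0.03), and 2 were higher and 4 lower in TIN (median −0.19). These comparisons called 55.2% and 60.2% of all genes in either direction. TIN against GLAD in normoxia had 3 higher and 3 lower (median −0.07), against 51.8% of all genes in either direction. The summed level of the 8 in normoxia was 930.8 and 929.2 in the double mutant, 361.8 and 363.5 in TIN, 552.4 and 587.8 in GLAD and 653.8 and 626.7 in wild type. In hypoxia 7 were higher and 1 was lower in the double mutant than in TIN (median 0.62), and 5 were higher and 1 lower than in GLAD (median 0.38). TIN against GLAD in hypoxia had 1 higher and 4 lower (median −0.31). These comparisons called 64.0%, 42.6% and 63.1% of all genes in either direction. The part of the HIF markers in the Bnip3 levels was not tested. Hif1a, the oxygen-regulated subunit of HIF-1, whose protein is known to be controlled mainly by degradation, stood in normoxia at a mean of 263.9 in the double mutant, 115.7 in TIN, 154.9 in GLAD and 124.1 in wild type.

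HIF binds DNA at the letters ACGTG or GCGTG, the core of the hypoxia response element, so the start regions of Bnip3 and Fkbp8 are shown as a gene that rose in every mutant and one that did not. Each is 300 bases from RefSeq (GRCm38.p6), 250 before the annotated start and 50 after it, 5′ to 3′ on the gene's strand; capitals mark ACGTG or GCGTG on either strand, so that CACGT and CACGC are matches on the opposite strand. Bnip3 is chr7:138909457-138909756, minus strand, and Fkbp8 is chr8:70527493-70527792, plus strand.
Bnip3: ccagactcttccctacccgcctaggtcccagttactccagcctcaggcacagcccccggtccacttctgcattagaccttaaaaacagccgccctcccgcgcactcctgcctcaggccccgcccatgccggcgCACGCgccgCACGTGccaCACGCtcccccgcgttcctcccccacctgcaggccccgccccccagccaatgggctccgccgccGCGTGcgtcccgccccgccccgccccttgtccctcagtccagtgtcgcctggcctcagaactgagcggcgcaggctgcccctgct
Fkbp8: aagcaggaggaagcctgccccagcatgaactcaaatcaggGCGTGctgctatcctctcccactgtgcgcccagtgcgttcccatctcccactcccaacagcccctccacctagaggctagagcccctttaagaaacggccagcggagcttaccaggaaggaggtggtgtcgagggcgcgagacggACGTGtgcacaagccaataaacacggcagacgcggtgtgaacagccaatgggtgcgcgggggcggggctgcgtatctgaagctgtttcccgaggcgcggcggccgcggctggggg
The Bnip3 window held such letters in 4 places, beginning at 117, 108, 99 and 35 bases before the start, and in the one at 108 the matches on the 2 strands overlap. The Fkbp8 window held them in 2 places, at 210 and 65 bases before the start, and the Pink1 window in 1. The Fundc1 and Sqstm1 windows held none, and Bnip3l had no entry. Of the 32851 start regions in the table, 43.8% held the letters at least once, 17.3% in at least 2 places and 2.44% in at least 4. A match of letters is a description of the sequence, and binding was not measured.

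An antisense gene, Gm45507, shares 504 of its 519 exon bases with Bnip3, and whether the authors' counting used strand is not given in the sources used here. It stood at 53.5% to 58.8% of the level of Bnip3 in every group and rose by 2.94 ± 0.05 in hypoxia (adjusted p = 2.9e-19). Without the strand setting, it is not known whether reads of 1 of these genes were counted for the other. Over the 14 libraries it was also the gene most like Bnip3 by Pearson correlation of log2 levels (r = 0.999 among 11958 genes with a mean of at least 5 CPM), followed by Pfkl, the liver-type phosphofructokinase of glycolysis (0.993), and the adenylate kinase gene Ak4 (0.988). The libraries in these correlations share their oxygen and genotype groups.

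Bnip3l (ENSMUSG00000022051, GRCm38 chr14:66985239-67008877, minus strand) encodes NIX, best known for clearing mitochondria from maturing red cells. In the double mutant it stood at 382.3 and 368.9 in hypoxia, against 114.0 and 112.9 in normoxia. In TIN the values were 278.4 and 280.7 in hypoxia, against 94.0 and 99.9 in normoxia. In GLAD they were 350.7 and 328.7 in hypoxia, against 94.5 and 84.1 in normoxia. In hypoxia the mutants did not overlap, with TIN lowest and the double mutant highest, although the double mutant against GLAD was not called (0.15, 0.20). The wild-type libraries, at 104.5 and 84.4, spanned those of TIN and overlapped those of GLAD.

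The rise was 3.31-fold in the double mutant (1.72 ± 0.09, adjusted p = 2.1e-11), 2.88-fold in TIN (1.52 ± 0.09, 1.6e-10) and 3.80-fold in GLAD (1.92 ± 0.09, 6.1e-12), and each of these calls held without any 1 library. In hypoxia Bnip3l was higher in the double mutant than in TIN by 0.43 ± 0.09 (4.2e-04), which also held throughout, and lower in TIN than in GLAD by 0.28 ± 0.09 (−0.28, 1.1e-02), or −0.08 (0.29) after length and GC adjustment. The rise was smaller in TIN than in GLAD by 0.40 ± 0.13 (−0.40, adjusted p = 2.1e-02), a call lost in 6 of the 14 fits without 1 library, where values ran from −0.45 to −0.28. The double mutant's rise differed from TIN's by 0.20 ± 0.13 (0.21) and from GLAD's by −0.20 ± 0.13 (0.32), neither called. In normoxia the double mutant was above wild type by 0.27 ± 0.09 (1.4e-02), but by 0.12 (0.21) without wild-type library B, by 0.43 (5.1e-05) without wild-type library A and by 0.28 (5.4e-02) without double-mutant library B in normoxia. Of the 2 relatives, Bnip3l had the smaller hypoxia effect in every mutant.

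The genes most like Bnip3l over the 14 libraries were Egln1 (r = 0.996), the oxygen-sensing hydroxylase that marks HIF for destruction, the histone demethylase gene Kdm4b (0.988) and Ndrg2 (0.988). A processed copy, Bnip3l-ps, reached at most 1.049 CPM.

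**Figure D2:**
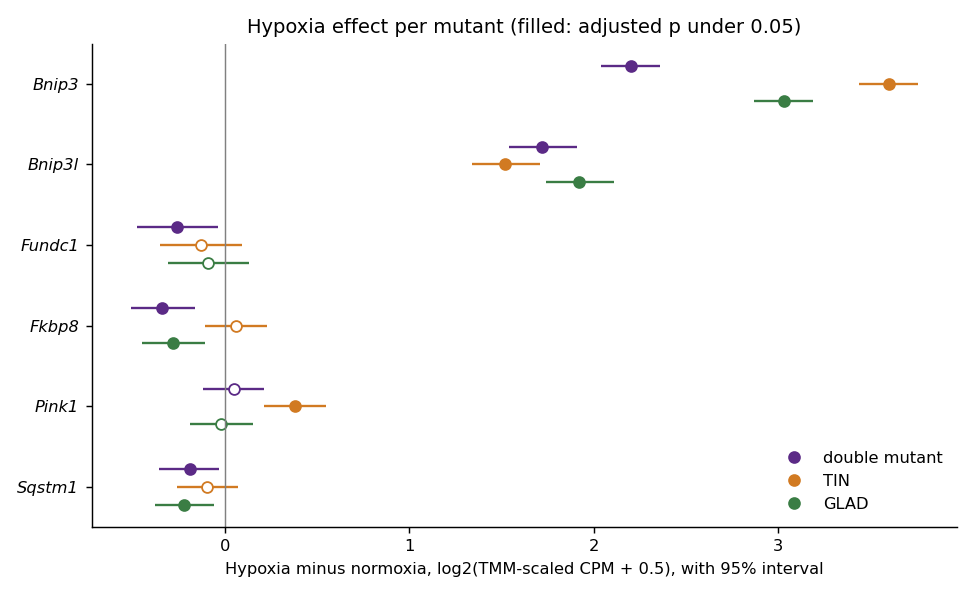
Difference between hypoxia and normoxia (horizontal axis, log2 of TMM-scaled CPM + 0.5) for each gene in the double mutant, TIN and GLAD; bars are 95% intervals and filled points have an adjusted p under 0.05. Bnip3 and Bnip3l lie between 1.52 and 3.60, and the other 4 genes between −0.34 and 0.38.

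Fundc1 (ENSMUSG00000025040, GRCm38 chrX:17556564-17572325, minus strand) encodes the receptor that is regulated in hypoxia by phosphorylation. It was the lowest of the 6 per kilobase of exon in every hypoxia and normoxia library. Its levels were 18.3 and 18.4 in the double mutant in hypoxia, against 21.9 and 22.2 in normoxia, and 22.5 and 22.1 in TIN in hypoxia, against 23.0 and 25.9 in normoxia. In GLAD they were 25.6 and 25.5 in hypoxia, against 27.4 and 27.1 in normoxia, and in wild type 22.6 and 19.2. The hypoxia libraries were the lower ones in each mutant, by small steps, and over the 3 mutants together the 2 oxygen levels overlapped.

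The fall was called in the double mutant (−0.26 ± 0.11, adjusted p = 4.4e-02), a call lost in 7 of the 14 fits without 1 library (−0.29 to −0.25). In TIN the difference was −0.13 (0.32) and in GLAD −0.09 (0.50). The average over mutants also lost its call with median-of-ratios scaling (−0.14). In hypoxia Fundc1 was lower in the double mutant than in GLAD by 0.47 ± 0.11 (−0.47, 1.6e-03), which held without any 1 library. In normoxia GLAD was above wild type by 0.38 ± 0.11 (5.1e-03), but by 0.27 (5.1e-02) without wild-type library B. The genes most like it were Cav1, the caveolae protein gene (r = 0.946), Atp6v0a2 (0.938) and Zkscan3 (0.925).

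Fkbp8 (ENSMUSG00000019428, GRCm38 chr8:70527724-70535328, plus strand) followed the mutants more than the oxygen level. In the double mutant it stood at 175.8 and 177.2 in hypoxia, against 227.3 and 218.4 in normoxia. In TIN it stood at 274.1 and 278.0 in hypoxia, against 268.9 and 261.2 in normoxia. In GLAD the values were 148.6 and 160.7 in hypoxia, against 184.7 and 190.9 in normoxia. TIN was thus the highest mutant at both oxygen levels and GLAD the lowest, without overlap between mutants at either level. The wild-type libraries, at 264.3 and 323.3, differed most from each other and reached the range of TIN.

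Fkbp8 fell in hypoxia in the double mutant (−0.34 ± 0.08, adjusted p = 2.0e-03) and in GLAD (−0.28 ± 0.08, 9.0e-03), and was not called in TIN (0.06, 0.57). The difference between double mutant and TIN was −0.39 ± 0.12 (1.1e-02), and that between TIN and GLAD 0.34 ± 0.12 (3.2e-02); the second was lost in 6 of the 14 fits without 1 library (0.31 to 0.40). In TIN, short transcripts were higher in hypoxia across all genes (Spearman rho with transcript length −0.214, against 0.053 in the double mutant and 0.095 in GLAD). After length and GC adjustment the TIN value of Fkbp8 turned to −0.17 (1.5e-02), that of TIN minus GLAD came to 0.09, and the double mutant and GLAD stayed called. In hypoxia Fkbp8 was lower in the double mutant than in TIN by 0.64 ± 0.08 (−0.64, 2.2e-06), and higher in TIN than in GLAD by 0.83 ± 0.08 (1.0e-07). In normoxia it was lower than in wild type in the double mutant (−0.39 ± 0.08, 5.6e-04, or −0.25, 5.8e-03, without wild-type library B) and in GLAD (−0.64 ± 0.08, 4.1e-06), while TIN gave −0.14 (95% interval −0.31 to 0.03).

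Kxd1, which overlaps Fkbp8 on the opposite strand in 224 exon bases, stood at 141.5% to 227.4% of its level and was higher in hypoxia by 0.13 ± 0.05 on average (3.5e-02), opposite in direction to Fkbp8. The genes most like Fkbp8 were Rnaseh2a (r = 0.985), Stk16 (0.984) and the mitochondrial ribosomal protein gene Mrpl2 (0.980).

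Pink1 (ENSMUSG00000028756, GRCm38 chr4:138313409-138326307, minus strand) encodes the kinase that senses depolarised mitochondria. In the double mutant it stood at 50.6 and 52.1 in hypoxia, against 49.8 and 49.7 in normoxia. In TIN it stood at 55.9 and 51.6 in hypoxia, against 40.5 and 41.8 in normoxia, and in GLAD at 55.8 and 60.4 in hypoxia, against 57.5 and 60.0 in normoxia. The 2 TIN libraries in normoxia were the lowest of all 14, and the wild-type libraries, at 65.6 and 63.8, the highest.

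Pink1 rose with hypoxia in TIN (0.38 ± 0.08, adjusted p = 5.8e-04), was not called in the double mutant (0.05, 0.65) or GLAD (−0.02, 0.87), and differed between double mutant and TIN (−0.34 ± 0.11, 2.3e-02) and between TIN and GLAD (0.40 ± 0.11, 1.1e-02). None of these held after length and GC adjustment, which gave 0.10 (0.28) for TIN, −0.10 (0.50) for double mutant minus TIN and 0.11 (0.47) for TIN minus GLAD. Its level in normoxia was less affected: it was lower than in wild type in TIN by 0.65 ± 0.08 (−0.65, 1.4e-06), or −0.43 (1.3e-04) after the adjustment, and in the double mutant by 0.38 ± 0.08 (−0.38, 6.0e-04). The genes most like Pink1 were Ptx3 (r = 0.958), Copz2 (0.942) and Qsox1 (0.933).

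Sqstm1 (ENSMUSG00000015837, GRCm38 chr11:50199366-50210827, minus strand) encodes p62, itself degraded by autophagy and known as a target of NRF2. In the double mutant it stood at 435.9 and 431.1 in hypoxia, against 486.7 and 505.9 in normoxia. In TIN it stood at 394.5 and 394.5 in hypoxia, against 421.2 and 422.1 in normoxia. In GLAD the values were 335.7 and 376.4 in hypoxia, against 399.1 and 429.8 in normoxia, and in wild type 491.0 and 559.1. Hypoxia libraries were lower than normoxia libraries within each mutant, and the double mutant and wild type overlapped in normoxia.

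On average over the mutants Sqstm1 fell by 0.17 ± 0.04 (adjusted p = 2.6e-03), which held without any 1 library. By mutant the values were −0.19 ± 0.08 in the double mutant (4.0e-02), −0.10 in TIN (0.31) and −0.22 ± 0.08 in GLAD (2.6e-02); the first call was lost in 8 and the last in 2 of the 14 fits without 1 library. After length and GC adjustment the TIN value was −0.34 and called. No difference between mutants in the hypoxia effect was called. In normoxia Sqstm1 was lower than in wild type in TIN by 0.31 ± 0.08 (−0.31, 2.0e-03) and in GLAD by 0.34 ± 0.08 (−0.34, 1.3e-03), and not called in the double mutant (−0.08, 0.40). The TIN call ended after length and GC adjustment (−0.10, 0.16) and the GLAD call without GLAD library A in normoxia (−0.24, 5.9e-02). Of 8 NRF2 targets 4 were higher and 3 lower in hypoxia on average (median 0.21), against 30.6% and 37.0% of all genes. In the double mutant 6 rose and 2 fell (median 0.86), against 25.8% and 30.2% of all genes. In TIN 2 rose and 4 fell (median −0.25), against 25.6% and 28.3%. In GLAD 3 rose and 3 fell (median 0.01), against 22.1% and 26.0%. Mrnip, which shares 580 exon bases with Sqstm1 on the opposite strand, stood at 1.92% to 3.29% of its level. The genes most like Sqstm1 were Pgs1 (r = 0.959), Mtss1l (0.951) and Ift57 (0.941).

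Against wild type in normoxia 4 of the 6 were called in the double mutant, 2 in TIN and 4 in GLAD, where 56.9%, 60.2% and 55.2% of genes were called. In normoxia 5 were called between double mutant and TIN (48.7% of genes), 6 between double mutant and GLAD (35.7%) and 3 between TIN and GLAD (51.8%). Without 1 of the 4 libraries concerned, the first count was 1 to 3 and the second 2. In hypoxia 3, 2 and 2 were called in the same pairs, against 64.0%, 42.6% and 63.1% of genes. For the hypoxia effect itself 3 differed between double mutant and TIN, 1 between double mutant and GLAD and 4 between TIN and GLAD, against 42.8%, 14.6% and 33.9% of genes. Departure from additivity of GLAD and TIN in normoxia was called for 5 of the 6, against 49.8% of genes, 24.0% above the sum and 25.7% below it: Bnip3, Fkbp8, Pink1 and Sqstm1 above the sum by 0.63, 0.39, 0.41 and 0.57, and Fundc1 below it (−0.52). After length and GC adjustment the Pink1 departure was 0.17 and no longer called (0.21), and those of Fkbp8 and Sqstm1 were 0.24 and 0.34, still called. Without wild-type library B that of Fkbp8 was 0.24 (3.0e-02).

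Set side by side per kilobase of exon, the 6 genes changed order with oxygen. Their summed level was 454.3 and 448.7 CPM per kilobase in the double mutant in hypoxia, against 287.5 and 290.2 in normoxia. It was 450.2 and 446.8 in TIN in hypoxia, against 246.9 and 250.5 in normoxia, and 432.6 and 438.8 in GLAD in hypoxia, against 239.4 and 246.4 in normoxia. The wild-type sum was 279.4 and 304.6. The hypoxia sums of the 3 mutants lay within 432.6 to 454.3, above every normoxia sum.

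Sqstm1 had the largest share of the normoxia sum, 49.7% to 54.7% over the 8 normoxia libraries, and Bnip3 the largest of the hypoxia sum, 35.2% and 35.3% in the double mutant, 37.7% and 37.2% in TIN and 40.9% and 39.3% in GLAD. In normoxia the share of Bnip3 was 12.1% and 11.7% in the double mutant, 5.16% and 5.82% in TIN, 9.19% and 8.29% in GLAD and 4.82% and 4.18% in wild type. Bnip3 was the highest of the 6 per kilobase in each hypoxia library, and below Sqstm1 and Fkbp8 in each normoxia library. Lengths are the union of annotated exons, so the order depends on which exons the cells use.

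**Figure D3:**
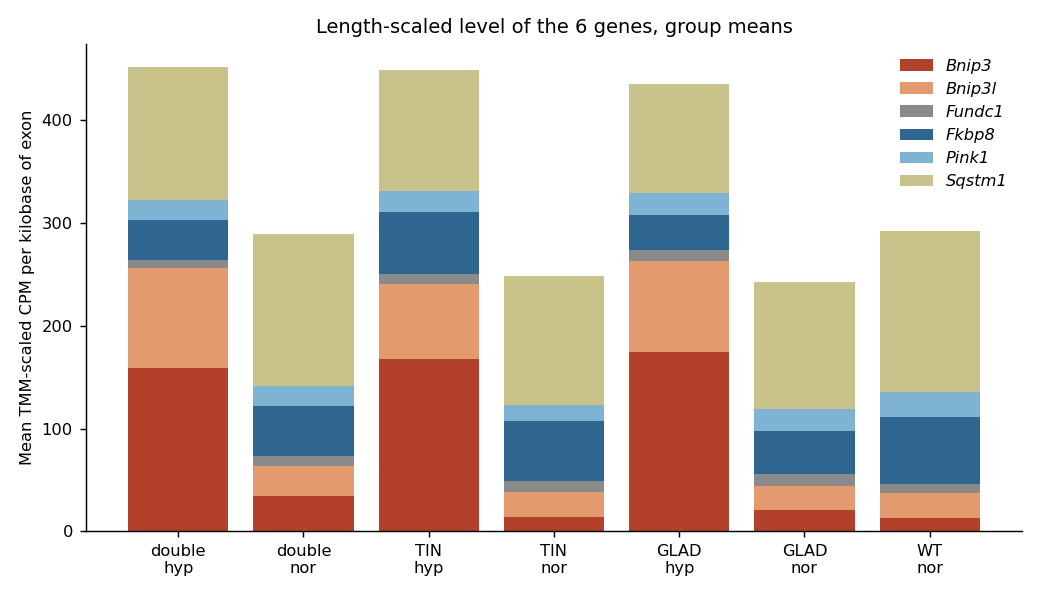
Mean level per kilobase of exon (vertical axis, TMM-scaled CPM per kilobase), stacked over the 6 genes for each group, hypoxia to the left of normoxia within each mutant and wild type last. Bnip3 and Bnip3l make up the added height of the hypoxia bars, and Sqstm1 the largest block of each normoxia bar.

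Transcripts of the genes that act on these receptors moved in both directions. Of 8 genes for turnover or modification of BNIP3, NIX and FUNDC1, 3 rose and 3 fell in hypoxia on average (median −0.04, as for all genes). Of all genes, 30.6% rose and 37.0% fell in that average. FBXL4 and PPTC7 act together in the destruction of BNIP3 and NIX. Fbxl4, the ubiquitin ligase subunit, was higher in hypoxia in each mutant, by 0.62 in the double mutant, 0.43 in TIN and 0.43 in GLAD (average 0.49 ± 0.07, adjusted p = 1.1e-05). Pptc7, its phosphatase partner, was lower, by 0.61, 0.93 and 0.41 in the same order (average −0.65 ± 0.06, 1.5e-08), and averaged 53.5 in hypoxia against 82.1 in normoxia in the double mutant, 37.9 in hypoxia against 72.7 in normoxia in TIN, and 63.5 in hypoxia against 84.5 in normoxia in GLAD. The 2 partners thus moved in opposite directions in every mutant, and both kept their calls after length and GC adjustment. Of the FUNDC1 enzymes, the kinase gene Src was lower on average (−0.34, 1.7e-06). Of the casein kinase 2 subunit genes, Csnk2a2 was higher (0.33, 1.4e-06), Csnk2b lower (−0.23, 7.9e-04) and Csnk2a1 not called (−0.05, 0.34). The phosphatase gene Pgam5 was higher on average (0.14, 1.0e-02) but called in the double mutant (0.36, 6.9e-04) and not in TIN (−0.03, 0.79) or GLAD (0.09, 0.38). After length and GC adjustment Pgam5 was lower in TIN and called (−0.19, 3.3e-02), and still higher in the double mutant (0.40, 9.9e-05).

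Of 12 other receptors and adaptors tested, 3 rose and 5 fell on average (median −0.07), against 30.6% and 37.0% of all genes. Optn, an adaptor that binds ubiquitin and LC3, rose in TIN by 0.80 (adjusted p = 3.5e-07) and in the double mutant by 0.30 (6.0e-03), with 0.14 (0.19) in GLAD. Tollip rose in all 3 mutants (average 0.41, 1.8e-07), and Nipsnap1, an eat-me signal on damaged mitochondria, fell in the double mutant (−1.38, 3.4e-06) and GLAD (−0.79, 1.4e-03), with 0.03 (0.91) in TIN. Wdfy3 fell in TIN (−0.79, 1.4e-05). Calcoco2, the mouse gene of the adaptor NDP52, reached at most 0.154. Of 16 genes of the PINK1 arm, 3 rose and 6 fell on average (median −0.06), against the same 30.6% and 37.0% of all genes. Vdac1, an outer-membrane channel, rose in the double mutant by 1.47, in TIN by 0.58 (0.38 after length and GC adjustment) and in GLAD by 0.93 (average 0.99 ± 0.04, 1.5e-13). Tomm70a, an import receptor, fell in TIN by 1.10 (−1.10, 1.5e-09), and Parl, the protease that cuts PINK1, fell on average by 0.46 (−0.46, 1.9e-05).

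The ATG8 family, to which the receptors bind, had 2 genes, Map1lc3a and Map1lc3b, that rose in TIN and whose hypoxia effect there exceeded that in the other mutants. In hypoxia 3 of 5 genes fell and none rose in the double mutant, 2 rose and 1 fell in TIN, and 3 fell and none rose in GLAD. Of all genes, 30.2%, 28.3% and 26.0% fell in the same order, and 25.8%, 25.6% and 22.1% rose. Map1lc3b, the gene of LC3B, averaged 186.5 in hypoxia against 217.8 in normoxia in the double mutant (−0.23, 1.6e-02). It averaged 271.0 in hypoxia against 185.7 in normoxia in TIN (0.55, 8.2e-06), and 155.9 in hypoxia against 184.1 in normoxia in GLAD (−0.24, 1.4e-02). The effect was lower in the double mutant than in TIN by 0.77 ± 0.11 (−0.77, 2.1e-05) and higher in TIN than in GLAD by 0.78 ± 0.11 (3.9e-05). Map1lc3a rose in TIN (0.92, 1.8e-06), with −0.18 (0.18) in the double mutant and −0.10 (0.49) in GLAD, and its effect differed by −1.10 (3.1e-05) for double mutant minus TIN and by 1.02 (1.3e-04) for TIN minus GLAD. Length and GC adjustment left the TIN rises at 0.49 for Map1lc3b and 0.71 for Map1lc3a, both called. Gabarap fell in all 3 mutants (average −0.46, 1.7e-07) and Gabarapl1 on average (−0.31, 2.5e-05), with no difference between mutants called for Gabarapl1. Between double mutant and GLAD none of the 5 genes was called for a difference in the hypoxia effect (0 of 5, median −0.01), against 14.6% of all genes.

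Of 27 core autophagy genes 15 rose and 6 fell on average (median 0.18), against 30.6% and 37.0% of all genes. Atg2b, a lipid transfer protein of the growing membrane, rose by 0.82 ± 0.04 (8.0e-12), Ulk1, the kinase that starts autophagy, by 0.74 ± 0.05 (9.3e-11), and Wipi1 by 0.62 (3.3e-09). Ulk1 rose more in the double mutant (1.37) than in TIN (0.45; difference 0.93 ± 0.11, 5.9e-06) or GLAD (0.41; difference 0.97 ± 0.11, 1.9e-05). Atg2b rose less in TIN (0.21, or 0.38 after length and GC adjustment) than in the double mutant (1.24) or GLAD (1.01), and Atg4c fell in TIN (−1.01, 1.5e-05). Among 11 fission and fusion genes 7 fell and none rose on average (median −0.19), against 37.0% and 30.6% of all genes. Those that fell included Yme1l1 (−0.51, 4.3e-07), Fis1 (−0.45, 1.4e-06) and, at levels of at most 2.1, Mtfp1 (−0.48, 3.3e-02). Opa1, which fuses inner membranes, fell in TIN (−0.78, or −0.47 after length and GC adjustment) and rose in GLAD (0.27, or 0.18), and Mief2 fell in the double mutant (−0.67).

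Among 17 lysosomal genes 5 rose and 6 fell on average (median −0.07), against 30.6% and 37.0% of all genes. The hydrolase gene Gla fell (−1.21, 7.4e-13), and the proton pump subunit gene Atp6v0d1 fell too (−0.42, 2.6e-07). Tfeb, the regulator of lysosomal genes, rose in TIN (0.37, 2.2e-02) and fell in GLAD (−0.44, 9.2e-03), and Neu1 did likewise (0.28, 3.0e-02, and −0.40, 4.4e-03). After length and GC adjustment neither was called in TIN (Tfeb 0.15, Neu1 0.14). BNIP3 and NIX belong to the wider BCL2 family of cell death regulators. Of 6 tested genes that carry a BNIP name or belong to that family, 2 rose and 2 fell on average, against 30.6% and 37.0% of all genes. The death inhibitor genes Bcl2 (−0.66, 2.6e-07) and Bcl2l1 (−0.52, 7.5e-09) were lower in hypoxia, while Bcl2l2, also a death inhibitor gene, was higher (0.26, 1.8e-04), as was Bnip1 (0.51, 3.3e-05).

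Of 7 upstream transcription factor genes 2 rose and 3 fell on average, against 30.6% and 37.0% of all genes. Foxo3, a factor known to act on Bnip3 and Bnip3l in mouse muscle, averaged 334.2 in hypoxia against 162.5 in normoxia in the double mutant, 174.8 in hypoxia against 83.9 in normoxia in TIN, and 311.7 in hypoxia against 131.8 in normoxia in GLAD. It rose in each (average 1.11 ± 0.05, adjusted p = 9.3e-13), and its wild-type mean in normoxia was 77.7. Hif1a rose in the double mutant (0.51, 2.6e-03) and in GLAD (0.33, 4.5e-02) and fell in TIN (−0.55, 1.7e-03), or by 0.31 (−0.31, 8.9e-03) after length and GC adjustment.

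**Figure D4:**
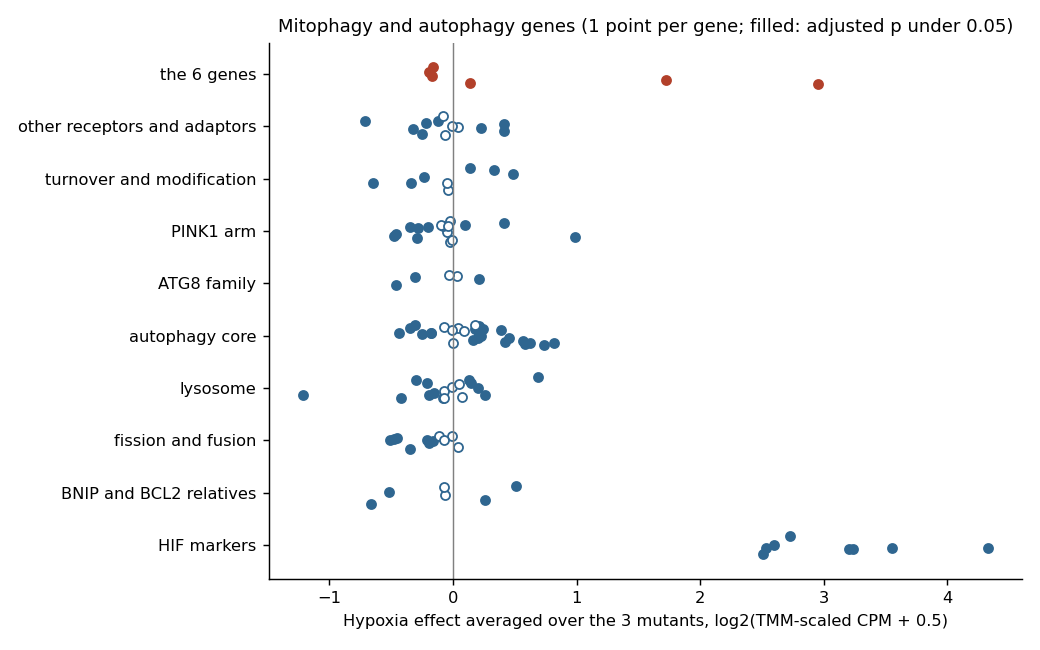
Hypoxia effect averaged over the 3 mutants (horizontal axis, log2 of TMM-scaled CPM + 0.5) for every tested gene of 10 lists, 1 point per gene, filled where the adjusted p is under 0.05; the vertical spread within a row has no meaning. Bnip3 and Bnip3l (red, at 2.95 and 1.72) lie apart from the other mitophagy, autophagy and lysosome genes, which span −1.21 to 0.99, and the 8 HIF markers lie at 2.51 to 4.33.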

How the data were processed

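Bulk RNA libraries were prepared with a TruSeq RNA kit, per the labels' protocols. STAR, HTSeq, mm10 and GRCm38.p4 are named in the submitters' processing notes; versions and strand settings are not given in the sources used here. The authors deposited CPM values per gene. Here they were scaled by TMM (30% and 5% trims, factors 0.965 to 1.038) and filtered at 1 CPM in 2 libraries, and log2(value + 0.5) was tested with limma 3.58.1 in R 4.3.3 (7 group means, 7 residual degrees of freedom, mean-variance trend, Benjamini-Hochberg adjustment in each of 17 comparisons), after a test on simulated data. All 6 members were tested in each comparison. Some of their results, called ones included, enter only the counts of called members, so a value not printed is not a null result. From other lists, up to 3 genes with the largest called average hypoxia effect and up to 2 with the largest difference between mutants were named. HIF markers, transcription factors and NRF2 targets were given as counts or where a result turns on them. The 3 genes most correlated with each member were also named. Hif1a, Foxo3, Calcoco2, Csnk2a1, Csnk2a2, Csnk2b, Bcl2l2, Thy1, Terf1 and the genes overlapping a member were named outside this rule, after their values were seen, and 1 gene the rule names is not reported here. Members and lists were chosen with earlier results of these data known. Alternatives covered scaling, filter, pseudocount, trend, length and GC content, the groups fitted, letters as a block and each library left out; length and GC adjustment of the list genes was chosen after seeing the data.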

Additional observations from a re-analysis of the deposited data

Results flagged for a closer look

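The hypoxia effect of 4 of the 6 genes differed in at least 1 pair of mutants by a test of the difference itself, an interaction term in limma. These log2 differences are listed here for that reason. Of all genes, 42.8% differed between double mutant and TIN, 14.6% between double mutant and GLAD and 33.9% between TIN and GLAD. Bnip3 differed in all 3 pairs, by −1.40 between double mutant and TIN, −0.83 between double mutant and GLAD and 0.57 between TIN and GLAD. In each of these pairs the Bnip3 levels were called different in normoxia and were not called different in hypoxia. Fkbp8 differed by −0.39 between double mutant and TIN and by 0.34 between TIN and GLAD. Pink1 differed by −0.34 between double mutant and TIN and by 0.40 between TIN and GLAD. Bnip3l differed by −0.40 between TIN and GLAD. For TIN minus GLAD the calls of Bnip3l and Fkbp8 were each lost in 6 of the 14 fits without 1 library, and that of Pink1 in 1. For double mutant minus TIN the Pink1 call was lost in 5. After length and GC adjustment the Pink1 differences came to −0.10 and 0.11 and the Fkbp8 difference between TIN and GLAD to 0.09, none of them called.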

How the results depend on the processing

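Of 1122 log2 changes of the 6 genes under other settings, 1057 kept direction and side of the threshold, 36 lost the call, 19 gained one and 10 changed sign; counts of called genes stayed within 1.5 times in 187 of 187. After length and GC adjustment Fkbp8 in TIN turned to −0.17, and Sqstm1 changed sign for TIN minus GLAD (−0.11), double mutant minus TIN (0.14) and double mutant against wild type (0.01), as did Pink1 for double mutant against TIN in hypoxia (0.05). The adjustment ended the hypoxia calls of Pink1 in TIN (0.10), on average (0.03), for TIN minus GLAD (0.11) and double mutant minus TIN (−0.10), of Fundc1 in the double mutant (−0.18) and on average (−0.10) and of Fkbp8 for TIN minus GLAD (0.09), and called Sqstm1 in TIN (−0.34). It gave 2 members for TIN minus GLAD, 5 for TIN against GLAD in normoxia, 2 for double mutant against TIN in normoxia and 4 for double mutant against GLAD in hypoxia. Median-of-ratios scaling left 3 members called in the double mutant, with Fundc1 at −0.24 and Sqstm1 at −0.17 there and Fundc1 at −0.14 on average no longer called. Without a filter, and without a variance trend, Sqstm1 lost its call in GLAD (−0.22) and the double mutant (−0.19), as did Bnip3l (−0.40) and Fkbp8 (0.34) for TIN minus GLAD, leaving 2 members there and, between double mutant and TIN in normoxia, 3 without a filter and 2 without a trend. With only the compared groups fitted, Fundc1 in the double mutant was −0.25 and not called, Sqstm1 in TIN −0.10 and called, Fundc1 for TIN minus GLAD 0.0003, and 4 members differed between TIN and GLAD in hypoxia. Sqstm1 for TIN against GLAD in normoxia changed sign without TMM (−0.01), with median-of-ratios (−0.02) and with only those groups (−0.04), and Pink1 in the double mutant without TMM (−0.003). The cause was not tested.

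Of 1428 log2 changes with 1 library left out, 1305 stayed alike; a lone library was assumed to vary like the other groups. Of 62 member calls, 38 held in every such fit. For the hypoxia effect the ranges were −0.09 to 0.003 (Pink1) and −0.32 to −0.17 (Sqstm1) in GLAD, −0.29 to −0.25 (Fundc1) and −0.24 to −0.17 (Sqstm1) in the double mutant, with 3 to 5 members called, and −0.19 to −0.13 (Fundc1) and 0.10 to 0.15 (Pink1) on average. For TIN minus GLAD they were −0.45 to −0.28 (Bnip3l), −0.12 to 0.05 (Fundc1), 0.31 to 0.40 (Fkbp8) and 0.34 to 0.46 (Pink1), with 1 to 4 members. For double mutant minus GLAD they were −0.09 to 0.0005 (Fkbp8) and −0.04 to 0.11 (Sqstm1), with 1442 to 3635 genes called, and for double mutant minus TIN −0.39 to −0.28 (Pink1). In normoxia against wild type they were −0.03 to 0.20 (Fundc1) and −0.17 to 0.02 (Sqstm1) in the double mutant, −0.04 to 0.15 (Bnip3), −0.11 to 0.20 (Bnip3l) and −0.29 to 0.004 (Fkbp8) in TIN, with 2 to 5 members, and −0.23 to 0.08 (Bnip3l) in GLAD. For TIN against GLAD in normoxia they were −0.03 to 0.16 (Bnip3l) and −0.09 to 0.03 (Sqstm1). Members called numbered 1 to 5 for double mutant against TIN and 2 to 6 against GLAD in normoxia (3800 to 7189 genes), and in hypoxia 1 to 4 for double mutant against GLAD and 1 to 3 for TIN against GLAD.

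Libraries of like letter, A or B, showed no strong shared deviation, with correlations of −0.096 to 0.161 over 21 pairs of groups, above 0.1 in 3. Such correlations cannot exclude a weaker pairing, and the letters were not used as a block in the main fit. With the letter as a replicate block the departure of Bnip3l from additivity was 0.30 and called (limma, adjusted p = 4.1e-02), and no other member call changed. Count tests on reads were not run, because the deposited values are CPM. With 2 libraries a group, 24 of the 62 member calls were lost without some 1 library.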

Other observations

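Among markers of other cell types, Cd68, a lysosomal glycoprotein gene usually read as a myeloid marker, rose in hypoxia by 1.89 in the double mutant, 2.42 in TIN and 1.36 in GLAD (limma, adjusted p = 1.5e-09, 7.3e-11 and 1.9e-07). The myeloid markers Ptprc, Adgre1 and Itgam did not exceed 0.207 TMM-scaled CPM in any library. The keratin gene Krt19 rose by 4.26, 2.82 and 3.53 in the same mutants (2.1e-11, 7.9e-09 and 4.3e-10), while the epithelial markers Epcam and Cdh1 reached at most 0.502.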
